A study of Homo sapiens with 12 samples.

Results

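A set of 10 genes known from endothelial cells was followed in a bone tumour cell line: ESM1, MYCT1, ERG, FLI1, PECAM1, CDH5, KDR, TEK, VWF and ENG, out of 18417 genes with a probe set of their own on the array. Each was read from a probe set annotated with exactly its symbol; PECAM1 had more than 1, and the one with the highest mean over the 12 arrays was taken. The basis of the choice is not recorded. ESM1 and MYCT1 are treated here as chosen by their measured log2 values, which were lower after estradiol in cells depleted of SRC-1, and the other 8 as added because they are endothelial genes. Values of ESM1 and MYCT1 that rest on the SRC-1 siRNA arrays are therefore a description. For these genes only the estradiol effect with non-targeting siRNA was tested. Its difference comes from other arrays, but its standard error and p-value use the spread among all 12 arrays. The test is thus not fully independent of the arrays treated as having chosen these genes.

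The cells were U2OS-ERα, a human osteosarcoma line that carries estrogen receptor α (the transcription factor that estradiol activates), grown and treated in medium with charcoal-stripped serum. The 4 groups held 3 arrays each, labelled as biological replicates: siRNA against SRC-1 with estradiol (siSRC-1_E), siRNA against SRC-1 with ethanol vehicle (siSRC-1_V), non-targeting siRNA with estradiol (NT_E) and non-targeting siRNA with ethanol (NT_V). All 4 groups were transfected with 50 nM of an siRNA pool, and estradiol or ethanol was given for 3 h; the labels state no estradiol dose. SRC-1, encoded by NCOA1, is a coactivator that nuclear receptors recruit. Values are log2 expression per probe set, and calls needed both p below 0.01 and, with Benjamini-Hochberg adjustment over all 29094 probe sets tested, adjusted p below 0.05. The p-values measure the spread among these 12 arrays.

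Endothelial cells line blood vessels. The ETS transcription factors ERG and FLI1 maintain their identity there, and the receptors KDR (for VEGF) and TEK (for angiopoietins) govern growth and quiescence. CDH5 and PECAM1 hold the cells together, VWF tethers platelets, and ENG is a co-receptor for ligands of the TGF-beta family that mesenchymal cells also carry. ESM1 encodes endocan, a secreted proteoglycan of sprouting vessels, and MYCT1 a membrane protein found in endothelial and blood-forming cells.

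The bases before the start sites of ESM1 and MYCT1 are shown because these genes had the widest differences downward. Promoter windows were given for 6 of the 10 members (RefSeq, GRCh38.p14). The ESM1 window is chr5:54985594-54985843 on the minus strand and the MYCT1 window chr6:152697696-152697945 on the plus strand, 250 bases each, written 5′ to 3′ up to the base before the start, with motif matches in capitals:
ESM1: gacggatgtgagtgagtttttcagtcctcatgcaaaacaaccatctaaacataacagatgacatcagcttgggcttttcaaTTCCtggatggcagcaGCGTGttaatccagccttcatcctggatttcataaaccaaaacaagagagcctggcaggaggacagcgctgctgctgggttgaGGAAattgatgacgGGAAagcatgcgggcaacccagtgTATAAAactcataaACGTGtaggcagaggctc
MYCT1: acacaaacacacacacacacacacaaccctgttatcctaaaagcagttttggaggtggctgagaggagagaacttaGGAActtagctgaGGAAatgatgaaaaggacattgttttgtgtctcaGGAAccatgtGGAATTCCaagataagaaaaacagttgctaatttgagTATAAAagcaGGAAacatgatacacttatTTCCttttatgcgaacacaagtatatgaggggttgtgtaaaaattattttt
Motifs were searched on both strands. The core that ETS factors bind was searched as GGAA, and the TATA box as TATAAA. An estrogen response half-site was searched as GGTCA, and the full palindrome, which contains it, as GGTCANNNTGACC. The AP-1 site was searched as TGANTCA. Of the hypoxia response cores, one was searched as ACGTG, and the other, which differs in its first base, as GCGTG. GGAA occurred 3 times in the ESM1 window and 7 times in the MYCT1 window, with 1 match of each strand side by side, and 92.7% of all 35116 promoter windows of this length hold it. TATAAA occurred once in each, from 32 bases before the start in ESM1 and from 80 bases before it in MYCT1, and 10.7% of all windows hold it. In ESM1 the hypoxia core ACGTG occurred 1 time (18.5% of all windows hold it) and the core GCGTG 1 time (32.2%); both were at 0 in MYCT1. Matches of the half-site (32.6% of all windows), its palindrome (0.0399%) and the AP-1 site (6.57%) were 0 in both windows. These are letter matches in a short stretch and say nothing of binding.

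Array medians lay between 6.86 and 6.90 log2, and arrays of 1 group correlated at 0.9967 to 0.9979 across probe sets. NCOA1 averaged 6.86 ± 0.07 log2 in siSRC-1_E arrays and 9.08 ± 0.07 in NT_E arrays, and 5.86 ± 0.29 in siSRC-1_V arrays and 8.79 ± 0.06 in NT_V arrays (SD, n = 3 each). NCOA1 was thus lower in all SRC-1 siRNA arrays than in all non-targeting arrays, 4.64-fold under estradiol and 7.60-fold under vehicle. It was also 2.00-fold higher in siSRC-1_E than in siSRC-1_V arrays (1.00 ± 0.11 log2, SE, limma adjusted p = 0.00029), so these 2 groups, which give every estradiol effect with SRC-1 siRNA, differ in the level of NCOA1 as well as in treatment. The part of that in the effects was not tested. The probe sets left out as presumed controls differed by treatment, and under estradiol also by siRNA. Their mean deviation per array was 0.094 to 0.178 in siSRC-1_E and -0.159 to -0.024 in siSRC-1_V arrays. It was -0.003 to 0.068 in NT_E and -0.123 to -0.039 in NT_V arrays. The part of these probe sets in the estradiol effects below was examined by fitting that mean as a covariate, which is named where it ends a call.

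Several defining markers of endothelial cells gave low values in these cells. All tested values had a median of 6.89 log2 and a lower quartile of 5.20. CDH5 averaged 6.10 log2 over the 12 arrays, VWF 5.70, TEK 5.57 and KDR 5.22, between these marks. PECAM1 (5.09) and FLI1 (4.89) lay below the lower quartile, and the other probe set of PECAM1 lower still, at 3.26. Signal over background was not measured, so none of these 6 is shown to be expressed, and the label "endothelial-type" describes what the genes are known for and not the cells. MYCT1 (9.97), ENG (9.17), ESM1 (8.37) and ERG (8.22) lay above the median. Different probe sets differ in brightness, so these averages do not order the transcripts.

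Other endothelial genes gave the same mixed picture. The gene lists used here and below were made with earlier results of these data known, so their counts are a description. Of 28 measured genes of the endothelial surface, junctions and secreted proteins, 8 had a mean above the median and 8 below the lower quartile. Of 17 endothelial transcription factors, 8 lay above the median and 2 below the lower quartile. For other cell types, 8 of 13 osteoblast and mesenchymal genes, 6 of 10 pericyte and smooth muscle genes and 2 of 12 blood cell and platelet genes lay above the median. The array mean of the blood cell list was 6.51 to 6.58 log2 in siSRC-1_E and 6.64 to 6.74 in siSRC-1_V arrays, and 6.59 to 6.63 in NT_E and 6.61 to 6.70 in NT_V arrays. LCP1, an actin-bundling protein of white blood cells that many tumour lines also make, and CD68, a lysosomal protein of macrophages, had its highest means, with differences from -0.17 to 0.05 log2. In limma 0 of its 12 genes were called in siSRC-1_E against siSRC-1_V arrays (3 at p below 0.05 before adjustment), NT_E against NT_V (1), siSRC-1_E against NT_E (2) or siSRC-1_V against NT_V (0). Over all probe sets 6.88%, 2.73%, 1.8% and 1.21% were called in these comparisons. Before adjustment 6740, 3863, 4589 and 3691 of 29094 had a limma p below 0.05.

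**Figure D1:**
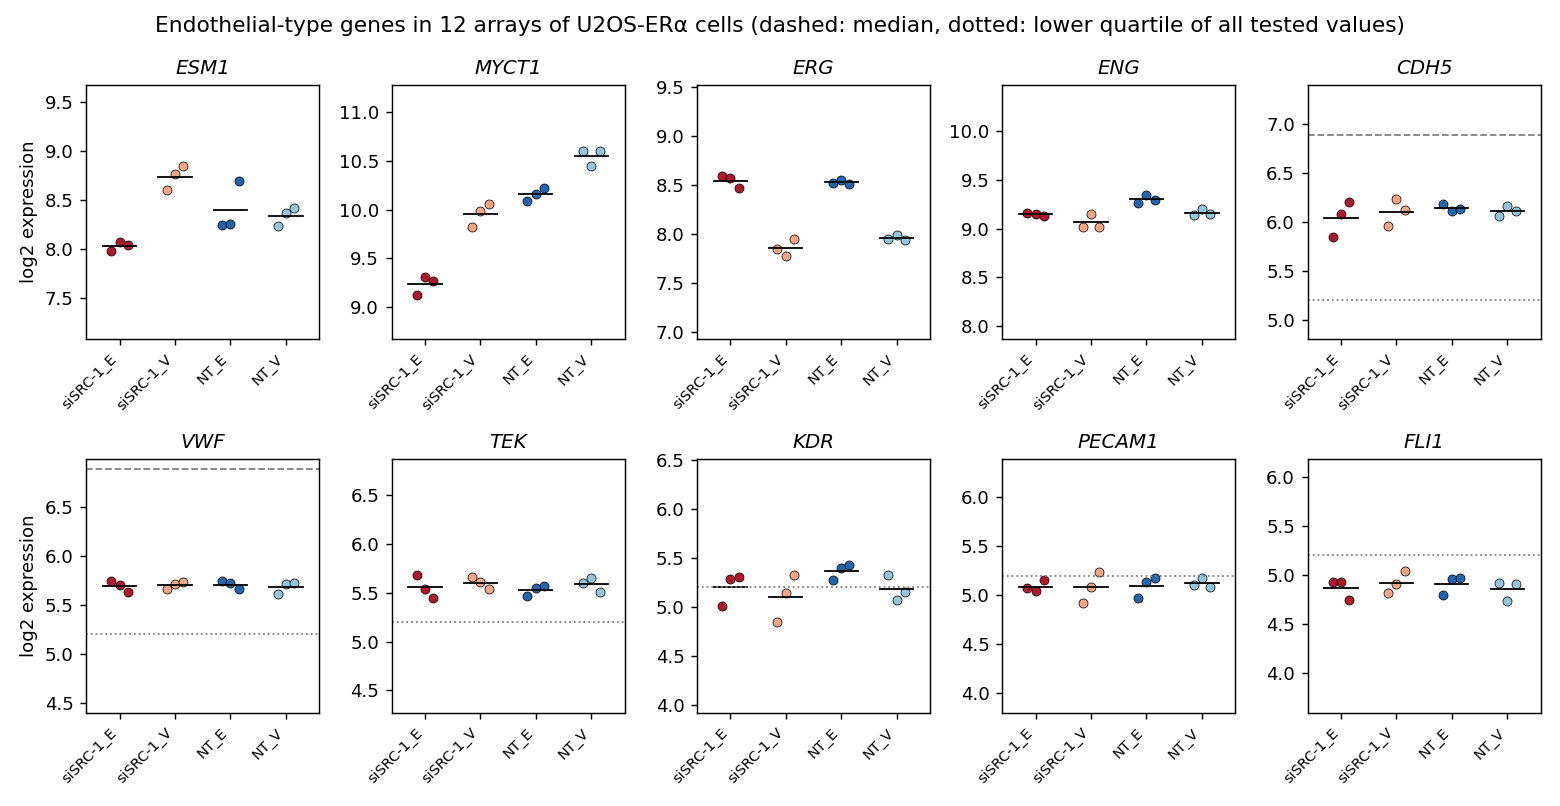
Log2 expression (vertical axis, spanning the same range in every panel) of the 10 genes in each of the 12 arrays, by group; points are arrays and bars group means, dashed lines the median (6.89) and dotted lines the lower quartile (5.20) of all tested values where they fall in the panel. MYCT1 steps apart in all 4 groups, ERG divides estradiol from vehicle arrays, and the groups overlap in the 6 panels from CDH5 to FLI1.

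ERG rose with estradiol whichever siRNA was present. Probe set 8070297 read 8.59, 8.57 and 8.47 log2 in siSRC-1_E arrays, against 7.84, 7.77 and 7.95 in siSRC-1_V arrays. With non-targeting siRNA it read 8.52, 8.55 and 8.51 in NT_E arrays, against 7.95, 7.99 and 7.94 in NT_V arrays. Every estradiol array thus lay above every vehicle array. In a population of cells, more cells with a transcript and more transcript per cell cannot be told apart.

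The rise of ERG was 1.62-fold with SRC-1 siRNA (0.69 ± 0.05 log2, SE, limma adjusted p = 1.7e-05) and 1.48-fold with non-targeting siRNA (0.57 ± 0.05, limma adjusted p = 9.99e-05). ERG was the 1 member called among the 8 tested in siSRC-1_E against siSRC-1_V arrays, a comparison in which 6.88% of all probe sets passed (upward 4.49%, downward 2.39%). These 2 comparisons use separate arrays but share an estimate of the spread. If its values led to the choice of ERG, these p-values and the count of 1 among 8 are not independent of that choice. Subtracting the second effect from the first left 0.13 log2 (limma adjusted p = 0.765, 95% interval from -0.04 to 0.29), which was not called. SRC-1 siRNA itself gave differences of 0.02 ± 0.05 log2 under estradiol (SE, limma adjusted p = 0.909) and -0.11 ± 0.05 under vehicle (limma adjusted p = 0.425), neither called. With the control probe set mean as a covariate ERG kept both calls, at 0.72 ± 0.12 log2 with SRC-1 siRNA (SE, limma adjusted p = 0.0442) and 0.58 ± 0.08 with non-targeting siRNA (limma adjusted p = 0.00446).

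MYCT1 took a different level in each group. Probe set 8122860 read 9.13, 9.31 and 9.27 log2 in siSRC-1_E, 9.82, 9.98 and 10.06 in siSRC-1_V, 10.09, 10.16 and 10.22 in NT_E, and 10.60, 10.44 and 10.60 in NT_V arrays. No 2 groups overlapped. The closest neighbours in that order were siSRC-1_V and NT_E, whose nearest arrays were 10.06 and 10.09.

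With non-targeting siRNA, MYCT1 fell 1.31-fold with estradiol (-0.39 ± 0.07 log2, SE, limma adjusted p = 0.0146). Of the 10 members, 2 were called there, ERG upward and MYCT1 downward, against 2.73% of all probe sets, 1.85% higher and 0.873% lower. Fitted on the NT_E and NT_V arrays alone, MYCT1 was called too (-0.389 ± 0.063 log2, SE, limma adjusted p = 0.0313). The call of MYCT1 is not firm, however. It was lost without NT_V replicate 1 (limma adjusted p = 0.0656) or 3 (0.0704) or NT_E replicate 1 (0.0637) or 2 (0.0554), and with the control probe set mean as a covariate (0.158), while the difference itself stayed between -0.44 and -0.36 log2 in all these fits.

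The remaining differences of MYCT1 involve the SRC-1 siRNA arrays and are given as a description. MYCT1 averaged 9.24 ± 0.09 log2 in siSRC-1_E and 9.95 ± 0.12 in siSRC-1_V arrays (SD, n = 3 each), a difference of -0.71 ± 0.07 (SE). Set against non-targeting siRNA, it was lower in siSRC-1_E than in NT_E arrays (a log2 difference of -0.92 ± 0.07, SE) and lower in siSRC-1_V than in NT_V arrays (-0.59 ± 0.07). The estradiol effect with SRC-1 siRNA minus that with non-targeting siRNA was -0.33 log2 (95% interval from -0.55 to -0.10).

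ESM1 followed neither of these patterns. Probe set 8112045 read 7.98, 8.07 and 8.04 log2 in siSRC-1_E, 8.60, 8.76 and 8.85 in siSRC-1_V, 8.24, 8.25 and 8.69 in NT_E, and 8.23, 8.37 and 8.42 in NT_V arrays. From high to low the order of means was siSRC-1_V (8.73), NT_E (8.39), NT_V (8.34) and siSRC-1_E (8.03). The siSRC-1_E arrays lay below all others. NT_E and NT_V overlapped, and NT_E replicate 3, at 8.69, lay within the range of the siSRC-1_V arrays.

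The test that ESM1 allows did not call an estradiol effect with non-targeting siRNA. The difference was 0.05 ± 0.11 log2 (SE, limma adjusted p = 0.909), with a 95% interval from -0.20 to 0.29. Fitted on the NT_E and NT_V arrays alone, the difference was 0.048 ± 0.126 log2 (SE, limma adjusted p = 0.908). Without NT_E replicate 3 the difference was -0.10 log2, and it was not called either. Had ESM1 been chosen for the gap between its 2 estradiol effects, this difference would not be independent of that choice. As a description, the siSRC-1_E minus siSRC-1_V difference was -0.70 ± 0.11 log2 (SE), and -0.70 ± 0.26 with the control probe set mean as a covariate. ESM1 was higher with SRC-1 siRNA under vehicle (0.39 ± 0.11 log2, SE) and lower under estradiol (-0.36 ± 0.11; -0.21 without NT_E replicate 3). The gap between the 2 estradiol effects, siSRC-1 minus NT, was -0.75 log2 (95% interval from -1.10 to -0.41), and -0.83 to -0.60 when single arrays were left out. No test is attached to it, because it contains the contrast from which the gene is treated as chosen; for that gap limma called 0 of 29094 probe sets (2102 at p below 0.05 before adjustment), or 2 where the variance was trended and robust.

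ENG differed little. Probe set 8164269 read 9.16, 9.15 and 9.13 log2 in siSRC-1_E, 9.02, 9.15 and 9.02 in siSRC-1_V, 9.26, 9.34 and 9.29 in NT_E, and 9.14, 9.20 and 9.15 in NT_V arrays. NT_E arrays were above all others, and siSRC-1_E, siSRC-1_V and NT_V arrays overlapped one another. Its widest difference, siSRC-1_E minus NT_E, was -0.15 ± 0.05 log2 (SE, limma adjusted p = 0.131). The estradiol effects were 0.08 ± 0.05 with SRC-1 siRNA (limma adjusted p = 0.301) and 0.13 ± 0.05 with non-targeting siRNA (limma adjusted p = 0.211), and knockdown under vehicle gave -0.10 ± 0.05 (limma adjusted p = 0.379).

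The 6 genes with values below the median were called in no comparison. Their log2 differences ran from -0.07 to 0.09 for estradiol with SRC-1 siRNA, from -0.06 to 0.19 for estradiol with non-targeting siRNA, from -0.17 to 0.02 for knockdown under estradiol and from -0.08 to 0.06 for knockdown under vehicle (smallest limma adjusted p 0.683, 0.56, 0.546 and 0.82). The 95% intervals extended at most 0.26 log2 to either side of the estimate, widest for KDR, from -0.17 to 0.36, -0.08 to 0.45, -0.43 to 0.10 and -0.34 to 0.19 in these comparisons. KDR varied most, with 5.01, 5.29 and 5.31 log2 in siSRC-1_E, 4.85, 5.14 and 5.33 in siSRC-1_V, 5.28, 5.40 and 5.43 in NT_E, and 5.33, 5.07 and 5.15 in NT_V arrays. Its groups all overlapped. VWF varied least, between 5.61 and 5.74 over the 12 arrays.

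**Figure D2:**
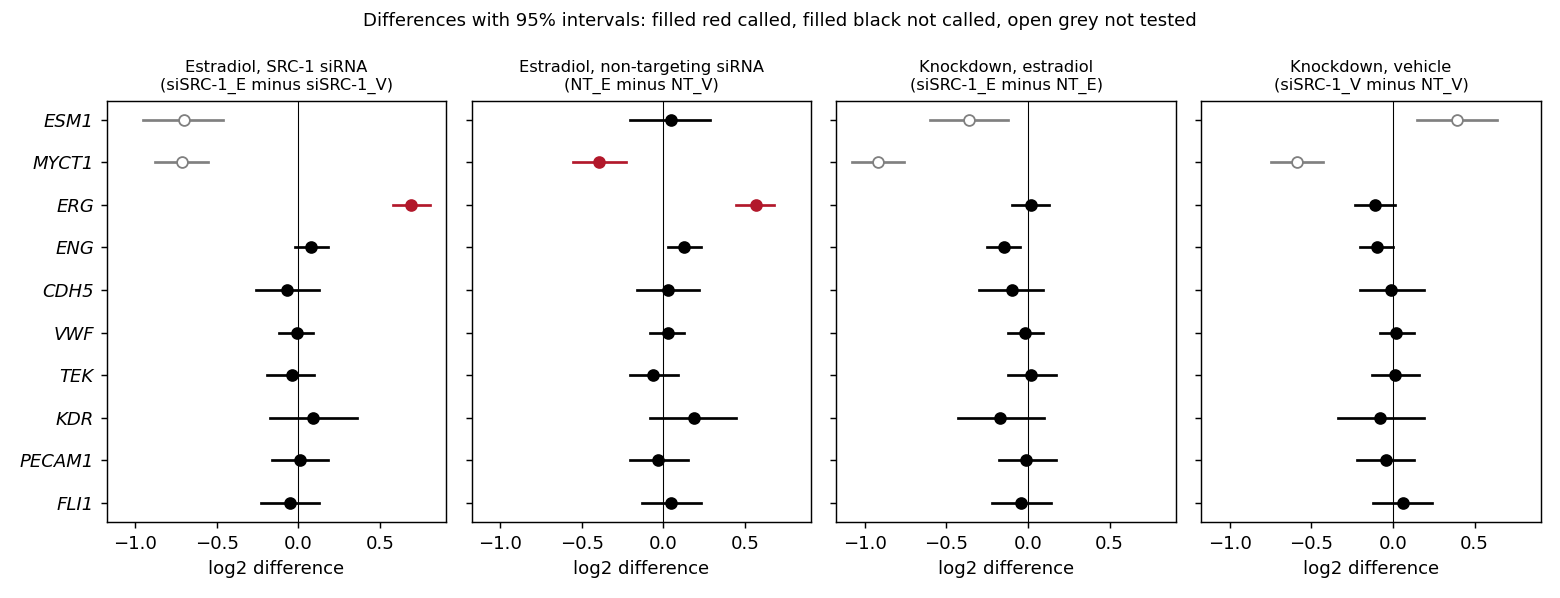
Log2 differences (points) with 95% intervals (lines) of the 10 genes in the 4 comparisons. Filled red points were called, filled black points were not, and open grey points were not tested because the gene is treated as chosen from those arrays; ERG is called in both estradiol comparisons and MYCT1 in NT_E minus NT_V.

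Groups did not overlap for ESM1, MYCT1 and ERG in siSRC-1_E against siSRC-1_V, for MYCT1, ERG and ENG in NT_E against NT_V, for ESM1, MYCT1 and ENG in siSRC-1_E against NT_E, and for ESM1 and MYCT1 in siSRC-1_V against NT_V arrays. Over all probe sets 25.8%, 21%, 22.3% and 18.4% did not overlap in these comparisons. ESM1 and MYCT1 are treated as chosen from the SRC-1 siRNA arrays, so nothing is read from the counts that hold them. The members' median log2 differences were -0.03, 0.04, -0.07 and -0.02 in that order, beside -0.02, -0.01, -0.01 and 0.00 over all probe sets. Among the 8 members tested for SRC-1 knockdown, limma called 0 under estradiol, where 1.8% of all probe sets passed (upward 0.732%, downward 1.07%), and 0 under vehicle, where 1.21% did (upward 0.265%, downward 0.945%). Before adjustment 1 of the 8, ENG, had a limma p below 0.05 in each, beside 4589 and 3691 of all 29094 probe sets.

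Listed genes of vessel growth were called in both directions with estradiol. As the list was made with earlier results known, nothing is read from its counts beside the shares of all probe sets. Of 30 angiogenic ligands, other receptors and tip-cell genes, 3 rose and 5 fell with SRC-1 siRNA, where 4.49% of all probe sets passed upward and 2.39% downward. With non-targeting siRNA 3 rose and 5 fell too, beside 1.85% upward and 0.873% downward. VEGFA, the main endothelial growth factor and ligand of KDR, averaged 9.43 log2 in siSRC-1_E and 9.12 in siSRC-1_V arrays, and 9.54 in NT_E and 9.20 in NT_V arrays, rising 1.24-fold and 1.27-fold (limma adjusted p = 0.00138 and 0.000778). THBS1, a secreted inhibitor of angiogenesis, rose 1.32-fold and 1.29-fold in the same comparisons (limma adjusted p = 0.000423 and 0.000967). EDN1, the vasoconstrictor endothelin, fell 1.31-fold and 1.46-fold, and FGF2, a heparin-binding growth factor, fell 1.35-fold and 1.43-fold. VEGFC, the lymphatic growth factor, fell 1.34-fold with SRC-1 siRNA and 1.20-fold with non-targeting siRNA. With the control probe set mean as a covariate 0 of the 30 stayed called with SRC-1 siRNA and 3 with non-targeting siRNA. The counts over all probe sets fell with that covariate too, in both comparisons, so the loss is not particular to this list.

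Among 21 ETS factors other than ERG and FLI1, ETS1, which is also active in endothelial cells, fell 1.36-fold with SRC-1 siRNA (10.27 log2 in siSRC-1_E and 10.71 in siSRC-1_V arrays) and 1.34-fold with non-targeting siRNA (10.39 in NT_E and 10.81 in NT_V arrays; limma adjusted p = 0.000477 and 0.000932). It was the 1 of 21 called with SRC-1 siRNA, where 6.88% of all probe sets passed, and 3 were called without siSRC-1_V replicate 1. With non-targeting siRNA, where 2.73% passed, ETS2 (1.18-fold) and ELF1 (1.14-fold) rose as well. This count of 3 became 1 without NT_V replicate 2 or 3 or NT_E replicate 2 or 3. The ERG and ETS1 effects were thus of opposite sign in both comparisons. The call of ETS1 with SRC-1 siRNA was lost with the covariate.

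Among 17 endothelial transcription factors, 3 fell and 0 rose with estradiol and SRC-1 siRNA: HEY1, a Notch target (-0.35 log2), TAL1, a factor of blood and vessel precursors (-0.32), and EPAS1, the hypoxia factor HIF-2α (-0.21), beside 2.39% of all probe sets passing downward. The count of 3 became 0 without siSRC-1_V replicate 2 or siSRC-1_E replicate 2 or 3, and 1 without siSRC-1_V replicate 3. With non-targeting siRNA, where 2.73% of all probe sets passed, limma called 0 of 17, and 1 without siSRC-1_V replicate 1 or siSRC-1_E replicate 1. Before adjustment 2 of the 17 had a limma p below 0.05, beside 3863 of all 29094 probe sets. The 2 were HEY1, at -0.29 log2 (limma adjusted p = 0.0814), and SOX17, an endothelial SOX factor named after its values were seen, at 0.27 (limma adjusted p = 0.084). The HEY1 effects with the 2 siRNAs differed by -0.06 log2 (limma adjusted p = 0.932). EPAS1 and SOX18, the members with the highest means, gave -0.11 and -0.06 log2. Of 28 endothelial surface, junction and secreted genes, 3 fell with estradiol and SRC-1 siRNA, namely S1PR1, a sphingosine-1-phosphate receptor (-0.35), CD93, a C-type lectin receptor (-0.32), and APLNR, the apelin receptor (-0.37), and S1PR1 fell with non-targeting siRNA too (-0.35). All calls of both lists were lost with the covariate in siSRC-1_E against siSRC-1_V arrays, where the count over all probe sets fell steeply too. The list medians were -0.12 and -0.09 log2 there, beside -0.02 over all probe sets. In the other lists they were negative too, from -0.12 for blood cell and platelet genes to -0.05 for pericyte and smooth muscle genes.

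**Figure D3:**
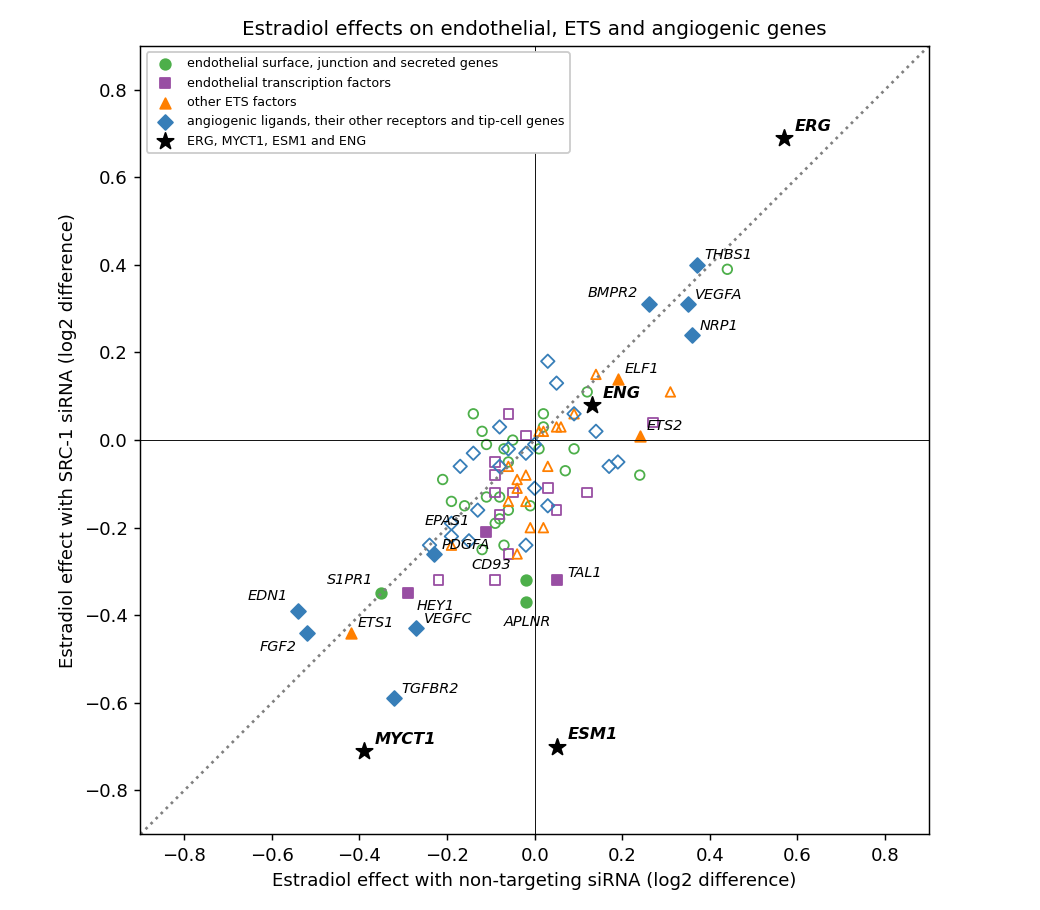
Estradiol effect with SRC-1 siRNA (vertical, log2 difference) against that with non-targeting siRNA (horizontal, log2 difference) for genes of the 4 lists, with ERG, MYCT1, ESM1 and ENG as stars; filled and named symbols were called in at least 1 of the 2 comparisons, and the dotted line marks equal effects. ERG lies at the upper right, MYCT1 at the lower left, and ESM1 below the horizontal line near 0 on the horizontal axis.

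SRC-1 knockdown lowered few of the listed genes. The arrays compared under estradiol, siSRC-1_E and NT_E, also differed in the mean of the presumed control probe sets. ADGRL4, an adhesion receptor of endothelial cells, averaged 7.79 log2 in siSRC-1_E and 8.47 in NT_E arrays (1.60-fold lower, limma adjusted p = 0.000727) and 8.03 in siSRC-1_V and 8.54 in NT_V arrays (1.43-fold lower, limma adjusted p = 0.00426). It was the 1 of 28 surface genes called in either comparison, and 2 were called under estradiol without siSRC-1_V replicate 3 and under vehicle without NT_V replicate 3. In the angiogenic list TGFBR2, a TGF-beta receptor, fell 1.54-fold under estradiol and 1.29-fold under vehicle, EDN1 fell 1.23-fold and 1.37-fold, and PGF, a ligand of the VEGF receptor FLT1, fell 1.23-fold under estradiol (limma adjusted p = 0.0462). These are 3 of 30 genes under estradiol and 2 under vehicle, where 1.07% and 0.945% of all probe sets passed downward. The 3 became 1 without NT_E replicate 2 or 3 or siSRC-1_E replicate 1 or 2. For knockdown limma called 0 of 17 endothelial transcription factors under estradiol (4 at p below 0.05 before adjustment) and under vehicle (1), and 0 of 21 other ETS factors under estradiol (7) and under vehicle (2). The brightest of these ETS factors, ELK3, gave -0.08 log2 in both. Among all 29094 probe sets, 4589 had a limma p below 0.05 before adjustment for knockdown under estradiol and 3691 under vehicle.

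The genes whose 12 values ran most like those of a member were sought among 16623 probe sets with 1 symbol and a mean at or above the lower quartile. For MYCT1 these were TGFBR2 (Pearson's r = 0.987), PLAU (0.987), PNP (0.983), SERPINB8 (0.979) and TGFBI (0.978). PLAU, the urokinase plasminogen activator, averaged 9.14 log2 in siSRC-1_E, 9.72 in siSRC-1_V, 9.95 in NT_E and 10.38 in NT_V arrays. TGFBR2 had the same order, with 10.32, 10.91, 10.95 and 11.27. For ESM1 they were RUVBL1 (0.918), MYCBPAP (0.913), TNC (0.909), WNT4 (0.905) and DPYSL4 (0.892). TNC, the matrix protein tenascin C, averaged 10.82 log2 in siSRC-1_E, 11.12 in siSRC-1_V, 11.05 in NT_E and 11.05 in NT_V arrays. The ranking by Spearman's correlation shared 0 of these 5 genes for MYCT1 and 3 for ESM1. These correlations describe 12 arrays in 4 groups and were not tested; that of ESM1 with MYCT1 was 0.47.

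**Figure D4:**
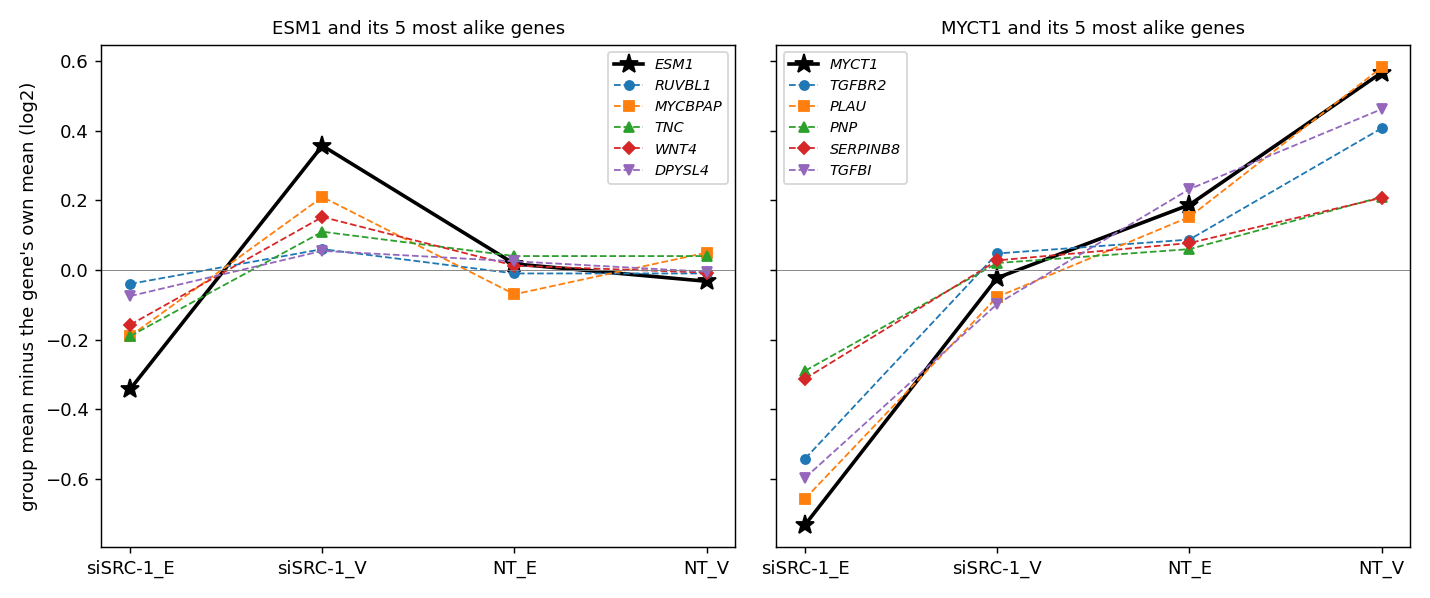
Group means of ESM1 (left) and MYCT1 (right), stars, with their 5 most alike genes by Pearson's correlation, each as its deviation in log2 from the mean of its 4 group means. ESM1 is highest in siSRC-1_V and lowest in siSRC-1_E, with smaller swings in the genes like it, and MYCT1 and its 5 genes run from lowest in siSRC-1_E to highest in NT_V.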

How the data were processed

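Each of 12 RNA samples of U2OS-ERα cells went on 1 Affymetrix Human Gene ST array. The authors deposited log2 values for each probe set, made from CEL files with the affy package and tested with limma, per the labels and design text; versions, background correction and normalization are not given in the sources used here. Among 33297 probe sets, the 4203 whose identifiers precede every annotated one were left out as presumed controls, an inference from the identifiers. Entrez identifiers of all 10 members matched their RefSeq symbols. A limma 3.58.1 model (R 4.3.3) of 4 group means was fitted over 29094 probe sets, with 3.15 prior and 8 residual degrees of freedom; tests are two-sided, and the threshold is that of the design text. The model was tested on simulated data. The members, the 7 gene lists (131 genes measured, the probe set with the highest mean per gene) and the choice of tests were made with earlier results of these data known. Named genes were the members, NCOA1, the 5 genes most alike to ESM1 and to MYCT1, and, for each list, up to 4 called genes with the smallest p, or up to 2 with the highest mean where none was called. Alternatives were a replicate block, the compared arrays only, a filter on dim probe sets, 2 other scalings, another variance model, a covariate, another probe set and each array left out. Precision is limited by 3 arrays a group; standard errors of differences had a median of 0.071 log2.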

Additional observations from a re-analysis of the deposited data

Results flagged for a closer look

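The 4203 probe sets left out as presumed controls, which enter no comparison, were higher in estradiol arrays than in vehicle arrays, with every estradiol array above every vehicle array. Their mean deviation differed by 0.226 log2 between siSRC-1_E and siSRC-1_V arrays and by 0.109 log2 between NT_E and NT_V arrays. This deviation was also higher in siSRC-1_E (0.094 to 0.178) than in NT_E arrays (-0.003 to 0.068), the groups compared for knockdown under estradiol. Its part in the estradiol effects was tested only by the covariate named beside them.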

How the results depend on the processing

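ERG kept its direction and its call in both estradiol comparisons under every alternative run, between 0.555 and 0.742 log2 when single arrays were left out, and MYCT1 and ESM1 kept the sign of their differences with SRC-1 siRNA. For estradiol with non-targeting siRNA, 2 members were called, 1 with the control probe set mean as a covariate, where MYCT1 was -0.392 ± 0.106 log2 (SE), and 1 to 2 when single arrays were left out. The covariate separates estradiol from vehicle arrays and raises standard errors; the cause of the lost call was not tested. ESM1 with non-targeting siRNA ranged from -0.101 to 0.124 log2 without single arrays, and ERG for knockdown under estradiol from -0.006 to 0.055, changing sign without being called. The ENG difference between the estradiol effects was 0.018 log2 with the covariate. Deviations of same-numbered replicates of different groups correlated at -0.03 to 0.21, above 0.1 in 5 of 18 pairs, so the numbers were not taken as pairs. The replicate block gave MYCT1 -0.389 ± 0.064 log2 (SE, limma adjusted p = 0.0126) and ERG 0.565 ± 0.057 (limma adjusted p = 0.000735) for estradiol with non-targeting siRNA, and changed no call of a member. Counts over all probe sets moved more: 2001 for estradiol with SRC-1 siRNA became 958 with the compared arrays only and 106 with the covariate, 793 with non-targeting siRNA became 366 with the covariate, 524 for knockdown under estradiol became 174, 1117 without the lowest 40%, 1246 with a trended variance and 121 with the covariate, and 352 under vehicle became 90, 728 and 857. Without single arrays they ran from 1042 to 2956, 531 to 783, 216 to 547 and 169 to 338. A count of called list genes was taken as moved if it changed by over 1.5 times, or to or from none called. Of 35 such counts, 12 moved without dim probe sets and 12 with a trended variance. With the covariate 9 of 35 moved, with the replicate block 3 and with either rescaling 1. With the compared arrays only, 9 of 28 moved. Among these, 5 rather than 8 angiogenic genes were called for estradiol with non-targeting siRNA.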

Other observations

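Of 13 osteoblast and mesenchymal genes, 2 were called lower with SRC-1 siRNA under estradiol, where 1.07% of all probe sets passed downward, and 3 under vehicle, where 0.945% did. The 2 stayed at 2 in every fit without 1 array, and the 3 became 1 to 2 in all 12 such fits. The vehicle count was 1 without NT_V replicate 1, 2 or 3, NT_E replicate 2, siSRC-1_V replicate 3 or siSRC-1_E replicate 3. SPP1, the bone matrix protein osteopontin, averaged 8.90 log2 in siSRC-1_E and 9.77 in NT_E arrays (-0.87 ± 0.07 log2, SE, limma adjusted p = 8.21e-05), and 9.13 in siSRC-1_V and 9.84 in NT_V arrays (-0.71 ± 0.07, limma adjusted p = 0.000541). ALPL, the alkaline phosphatase of mineralizing bone, was lower by -0.43 log2 under estradiol and -0.23 under vehicle, and THY1, a mesenchymal surface protein, by -0.28 under vehicle. For estradiol with SRC-1 siRNA 1 gene of this list was called, COL1A2, a chain of type I collagen, at -0.22 log2 (limma adjusted p = 0.047), in a comparison where 6.88% of all probe sets passed. That count was 3 without siSRC-1_V replicate 1, stayed at 1 without NT_E replicate 2 or 3 or siSRC-1_E replicate 2, and was 0 without any other single array. Of 10 pericyte and smooth muscle genes, CNN1, the actin-binding calponin, was called higher in siSRC-1_E (9.39 log2) than in NT_E arrays (8.95; limma adjusted p = 0.0216), the 1 gene of the list called in the 4 comparisons, and lost that call with the control probe set mean as a covariate. The count of 1 became 0 without NT_E replicate 1 or 3 or siSRC-1_E replicate 1 or 3, and 2 without siSRC-1_E replicate 2.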
